A study of Mus musculus with 3 samples.

Results

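The adipogenic transcription factors described here are 10 genes, Pparg, Cebpa, Cebpb, Cebpd, Klf15, Ebf1, Ebf2, Zfp423, Ppara and Rxra, chosen by name out of the 37074 genes on the arrays. All 10 were on the arrays, with 16 of the 56605 probes. RNA came from epididymal fat of 20-week-old male C57/BL mice, and no allele or agent is named for any group. After collagenase digestion, a brief spin at 9 g left stromal vascular cells (SVC) in the lower phase. A second spin of the floating cells, at 226 g for 3 min, gave a sediment called small proliferative adipocytes (SPA) and a floating layer of mature white adipocytes (MWA). SVC and SPA were grown in DMEM to 90% confluency before RNA was taken, and the labels describe no culture of MWA, so culture and fraction cannot be told apart in any comparison with MWA. The sample titles also give MWA a later date than SVC and SPA, which share theirs. What the date marks is not stated, and it too cannot be told apart from the fraction in those comparisons. Each fraction was measured on 1 Agilent array with 1 colour, and the number of mice behind each array is not given in the labels.

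Adipocytes form when a cascade of transcription factors is switched on in progenitor cells. CEBPB and CEBPD act early and raise PPARG and CEBPA, which then keep each other on and activate the genes of lipid uptake, storage and breakdown. PPARG binds DNA as a pair with RXRA, while EBF1, EBF2 and ZFP423 are known for roles in committing progenitors to the fat lineage, KLF15 for its part in late differentiation and PPARA for its control of fatty acid oxidation.

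All 10 genes were read well above background on all 3 arrays, at the probe of each gene with the highest mean level. A level is the log2 of the processed signal over the 75th percentile of its array, a signal of 430 (SVC), 439 (SPA) or 366 (MWA). Levels of different probes are not set against each other. With 1 array a fraction there is no replicate check and no test, and precision is limited by this number of arrays. The only error available is the SD between the repeated spots of 300 probes that were printed 10 times on each array. It covers the error within an array only, and it was taken by range of signal. Below a signal of 64 it rests on 4 to 7 probes an array. Each middle range of signal rests on 2 to 8 probes an array, and the brightest range on 273 to 275. At the probe read here, only Cebpb and Rxra lay in the brightest range on all 3 arrays. In the following, the spot SD of a difference joins the SDs of both arrays at that signal.

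The labels were set against marker genes. Of 4 adipocyte markers, all were above background in SPA and MWA, whereas Adipoq and Plin1 were not in SVC. The signals of the 4 relative to the 75th percentile summed to 0.555 (SVC), 11.9 (SPA) and 1150 (MWA). From SVC to SPA, 3 of the 4 were at least 2-fold higher, beside 3.9% of all genes, but Lep was only 1.19-fold higher. All 6 macrophage markers were above background on every array, with a summed relative signal of 529 (SVC), 586 (SPA) and 178 (MWA). C1qa alone of these was past 2-fold between SPA and SVC, at 9.12-fold lower in SPA. The 7 fibroblast and progenitor markers were likewise above background throughout, at 280 (SVC), 156 (SPA) and 426 (MWA). They did not move together. In MWA over SVC, Cd34, Dcn and Col3a1 were at least 2-fold higher, Col3a1 with a log2 value of -3.97 at another probe. Pdgfra was 5.76-fold, Pdgfrb 2.74-fold and Col1a1 2.77-fold lower. Over all genes these shares were 17.3% and 18%. The 5 endothelial markers were also above background on every array, at 1.97 (SVC), 3.91 (SPA) and 24.5 (MWA). The 4 mesothelial markers were also read on every array, at 18.4 (SVC), 5.55 (SPA) and 18.9 (MWA). Of 3 red cell markers, the globin genes Hba-a1 and Hba-a2 were above background on every array and Alas2 in MWA alone, and their sum was 0.306, 0.343 and 655. The sums were 3.47, 3.75 and 3.71 for 4 lymphocyte markers, of which 1, 3 and 2 were above background and Cd79a on no array, and 1.22, 6.15 and 3.70 for 2 neutrophil markers, of which S100a9 was not above background in SPA. They were 313, 136 and 31.7 for 3 smooth muscle and pericyte markers, all above background. Acta2, the brightest of these on every array, was 15.0-fold lower in MWA than in SVC. Rgs5 was 120-fold higher, and Myh11 1.72-fold higher with a log2 value of -0.08 at another probe, so the 3 did not move together. The sums were 0.175, 0.271 and 0.284 for 3 Schwann cell markers, of which 3, 3 and 2 were above background. Markers of cells other than adipocytes were thus read in each fraction, and the part of such cells in the levels of the 10 factors was not tested. In such bulk samples, fewer cells of a type and less RNA per cell cannot be told apart.

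Pparg, which encodes the nuclear receptor PPARG and is required for fat cell formation, gave a signal of 1206 in SVC, 3570 in SPA and 17476 in MWA. Its levels were 1.49, 3.02 and 5.58, lowest in SVC, between in SPA and highest in MWA. SPA stood 2.90-fold above SVC, a log2 ratio of 1.54 with a spot SD of 0.111, and 99.2% of the 20699 genes measured in both had a lower ratio. MWA was 5.88-fold above SPA and 17.1-fold above SVC. The local background around the MWA spot was marked as outlying, although the raw signal, before background subtraction, was 520 times a local background of 33.

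The second probe of Pparg, annotated to another transcript of the gene, was not well above background on any array, with signals of 3.34, 2.93 and 11.8, so no fold is given for it. The array annotation places the readable probe at chr6:115440213-115440272 and the dim one at chr6:115413557-115413616 in mm9, both on the plus strand. It lists 4 transcript accessions for the readable probe and 1 for the dim one, so the readable probe does not separate the transcripts of Pparg that come from its alternative promoters. The first 30 of the 60 bases of both probes are shown because only one of them gave a signal.
Pparg, readable probe: gcaggaaagtcccacccgctgacaacgtgt
Pparg, dim probe: gagtaatacaagagctcataggtcatctct

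Cebpa, the C/EBP factor that works with PPARG to hold the differentiated state, had levels of 1.08 in SVC, 2.09 in SPA and 4.34 in MWA. This was the order of Pparg. SPA was 2.02-fold above SVC, a log2 ratio of 1.01 with a spot SD of 0.107, which is on the 2-fold line within that SD and was 0.95 to 1.00 under 4 of the other settings. MWA was 4.75-fold above SPA and 9.59-fold above SVC. The genes whose pair of log2 ratios, SPA over SVC and MWA over SPA, lay nearest to that of Pparg over these 3 arrays were Sort1, a sorting receptor, at a distance of 0.05, Klra4 at 0.07 and Lgals4 at 0.21. Nearest to Cebpa were Gja5 at 0.06, Pink1 at 0.07 and Epor at 0.09, and 22 of 19865 genes lay within 0.25 of it, against 6 for Pparg.

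Cebpb and Cebpd, the early C/EBP factors, differed less than Cebpa between SVC and MWA. Cebpb had levels of 4.12 in SVC, 4.19 in SPA and 4.74 in MWA. SVC and SPA differed by 0.07 on the log2 scale, next to a spot SD of 0.054, and MWA was 1.46-fold above SPA and 1.54-fold above SVC. Cebpd, in contrast, had its lowest level in SPA, at 3.14, against 4.43 in SVC and 5.68 in MWA. Its signals were 9286 in SVC, 3873 in SPA and 18703 in MWA, so SPA was 2.45-fold below SVC, a log2 ratio of -1.29 with a spot SD of 0.087. Only 1.7% of the genes measured in both arrays had a lower ratio. MWA was 5.80-fold above SPA but 2.37-fold above SVC, and the drop in SPA rests on the same SPA array in both comparisons.

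Rxra, the partner of the PPARs on DNA, had levels of 4.17 in SVC, 4.55 in SPA and 5.73 in MWA. SPA was 1.30-fold above SVC. MWA was 2.26-fold above SPA, a log2 ratio of 1.18 with a spot SD of 0.059, and 2.94-fold above SVC. The second Rxra probe, with signals of 79.1, 95.8 and 222, gave 2.78-fold and 3.30-fold for the same comparisons, so both probes gave the order SVC, SPA, MWA from low to high.

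Ppara, the PPAR best known from liver and brown fat, was dim in the cultured fractions. Its signals were 23.1 in SVC, 50.2 in SPA and 598 in MWA, with levels of -4.22, -3.13 and 0.71. Before background subtraction, the raw signals in SVC and SPA were 1.78 and 2.79 times their local background, whereas that in MWA was 22.3 times. MWA was 14.3-fold above SPA and 30.5-fold above SVC, and the latter log2 ratio of 4.93 was above the 4.68 of Zfp423 and the 4.09 of Pparg. This order was not kept with normexp, another background correction, where Pparg was at 3.99, Zfp423 at 3.55 and Ppara at 3.15, nor with the median over probes, where Ppara was at 4.40 and Zfp423 at 4.54. For MWA over SPA, 98.3% of genes had a lower ratio. SPA was 2.13-fold above SVC, with a log2 ratio of 1.09 and a spot SD of 0.235. A second Ppara probe was above background in MWA alone, at least 16.6-fold over SPA and at least 14.7-fold over SVC. The first 30 bases of both are given because only one of them was read in all 3 fractions.
Ppara, probe read in all fractions: ctttgaaaacctacaagtcaaggtgtggcc
Ppara, probe read in MWA alone: cctgtaagctgatgaatgtaaagagttaat

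Klf15, a zinc finger factor that glucocorticoids induce, had signals of 93.5 in SVC, 101 in SPA and 1097 in MWA. Its levels in SVC and SPA, -2.20 and -2.13, differed by less than the spot SD of 0.120, and the level of 1.58 in MWA stood apart from both. MWA was 13.1-fold above SPA and 13.8-fold above SVC, and 98.2% of genes had a lower ratio for MWA over SPA. Among its relatives in the Krüppel-like family, Klf4, which helps to start adipogenesis, was 5.52-fold above SPA in MWA, Klf9 was 4.40-fold higher and Klf2, a repressor of Pparg, was 5.24-fold higher. The local background of Klf4 was marked as outlying on every array. Klf5 was 12.5-fold below SPA in MWA, with levels of 0.20 in SVC, 0.77 in SPA and -2.87 in MWA. Klf3 and Klf7 were 1.05-fold and 1.71-fold above SPA in MWA.

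Ebf1, a helix-loop-helix factor of B cells and fat progenitors, was the factor with the most probes. Its levels were 1.07 in SVC, 1.28 in SPA and 2.40 in MWA at the probe read here. Over all 3 probes the log2 ratio was 0.21 to 0.46 between SPA and SVC and 1.05 to 1.21 between MWA and SPA, so MWA was at least 2.08-fold above SPA at each of them. At the probe read here MWA was 2.18-fold above SPA and 2.51-fold above SVC. One of these probes lies 85 to 26 bases before the first Ebf1 start that RefSeq lists, and it was read on every array, with signals of 701 in SVC, 875 in SPA and 1686 in MWA.

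Ebf2, which marks beige and brown progenitors, had its highest levels in both SPA and MWA. Levels were 0.56 in SVC, 1.17 in SPA and 1.20 in MWA, so SPA and MWA differed by 0.03, less than the spot SD of 0.088. SPA was 1.53-fold and MWA 1.56-fold above SVC. Of the other EBF genes, Ebf3 was 5.60-fold above SPA in MWA, and Ebf4 had log2 ratios of 0.74 and -0.23 at its 2 probes.

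Zfp423, a zinc finger factor that marks committed white preadipocytes, gave the largest log2 ratio of the 10 factors for MWA over SPA. Its signals were 41.3 in SVC, 61.8 in SPA and 901 in MWA, with levels of -3.38, -2.83 and 1.30. MWA was 17.5-fold above SPA and 25.7-fold above SVC, and 98.6% of genes had a lower ratio for MWA over SPA. SPA and SVC were both close to background, with raw signals 2.85 and 2.25 times the local background, which was marked as outlying on both arrays. The other Zfp423 probe was marked so in SVC alone and gave 17.1-fold for MWA over SPA and 21.1-fold for MWA over SVC. Zfp521, its paralogue and a restrainer of the fat lineage, was 1.57-fold below SPA in MWA. The first 30 bases of both Zfp423 probes are shown because 2 separate stretches of the transcript gave this difference.
Zfp423, probe read here: tgacttgatctgactgcagtaactagttca
Zfp423, other probe: agctagtgtgcttttagagttttcgccgca

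**Figure D1:**
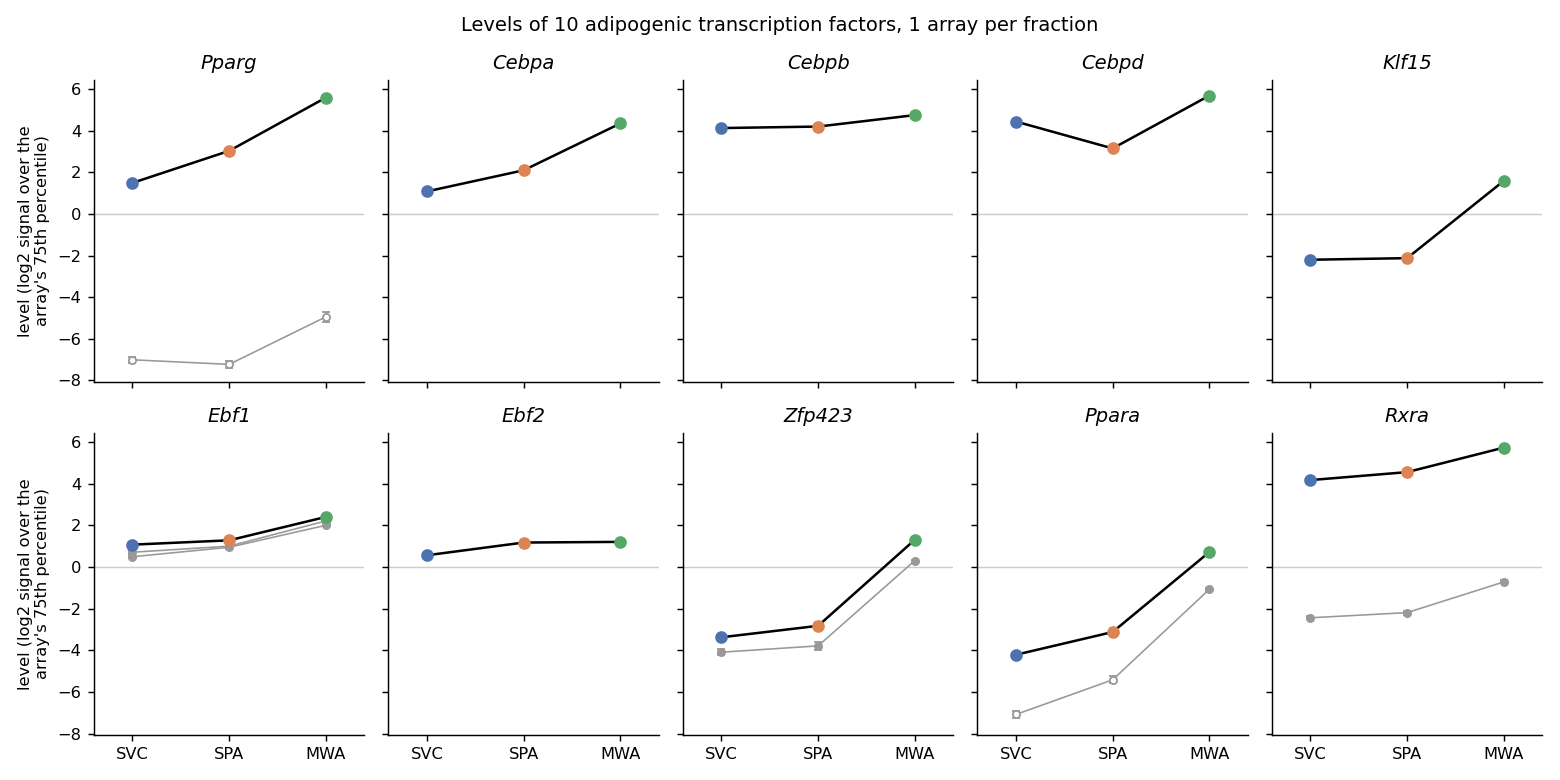
Level of each factor (log2 signal over the 75th percentile of the array) on the SVC, SPA and MWA arrays, with coloured points for the probe read here, grey points for other probes, open points where a probe was not well above background and bars for the spot SD. Levels were highest in MWA for all 10 factors, though for Ebf2 MWA was above SPA by less than the spot SD. Cebpd is the one with its lowest level in SPA.

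Counted together, 3 of the 10 factors were at least 2-fold above SVC in SPA, namely Pparg, Cebpa and Ppara, and 1 was at least 2-fold lower, Cebpd. Over all 22664 genes read, 3.9% were at least 2-fold higher and 3.25% at least 2-fold lower. None of the factors reached 5-fold in either direction, the size that the study used for its lists, beside 0.322% of genes higher and 0.353% lower. Between MWA and SPA, 8 of 10 were at least 2-fold higher in MWA, all but Cebpb and Ebf2, beside 15.8% of 23956 genes. At 5-fold the count was 5 of 10, Pparg, Cebpd, Klf15, Zfp423 and Ppara, beside 5.49% of genes. No factor was 2-fold or 5-fold lower in MWA, whereas 17.9% and 3.98% of genes were.

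MWA against SVC gave 8 of 10 factors at least 2-fold higher, beside 17.3% of 23453 genes, and 5 at least 5-fold higher, Pparg, Cebpa, Klf15, Zfp423 and Ppara, beside 5.74%. None was lower by these sizes, against 18% and 3.97% of genes. The median log2 ratio of the 10 factors was 0.47 between SPA and SVC, 2.39 between MWA and SPA and 2.41 between MWA and SVC, where the medians over all genes were 0.07, -0.07 and -0.0010. The order SVC, SPA, MWA from low to high was that of 9 factors, and of 25.4% of the 19865 genes measured on all 3 arrays. Cebpd had the order SPA, SVC, MWA, as did 14.5% of those genes. In this order the SVC and SPA levels of Klf15 and the SPA and MWA levels of Ebf2 lay within their spot SD. The comparisons share arrays, so they are not independent of each other.

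**Figure D2:**
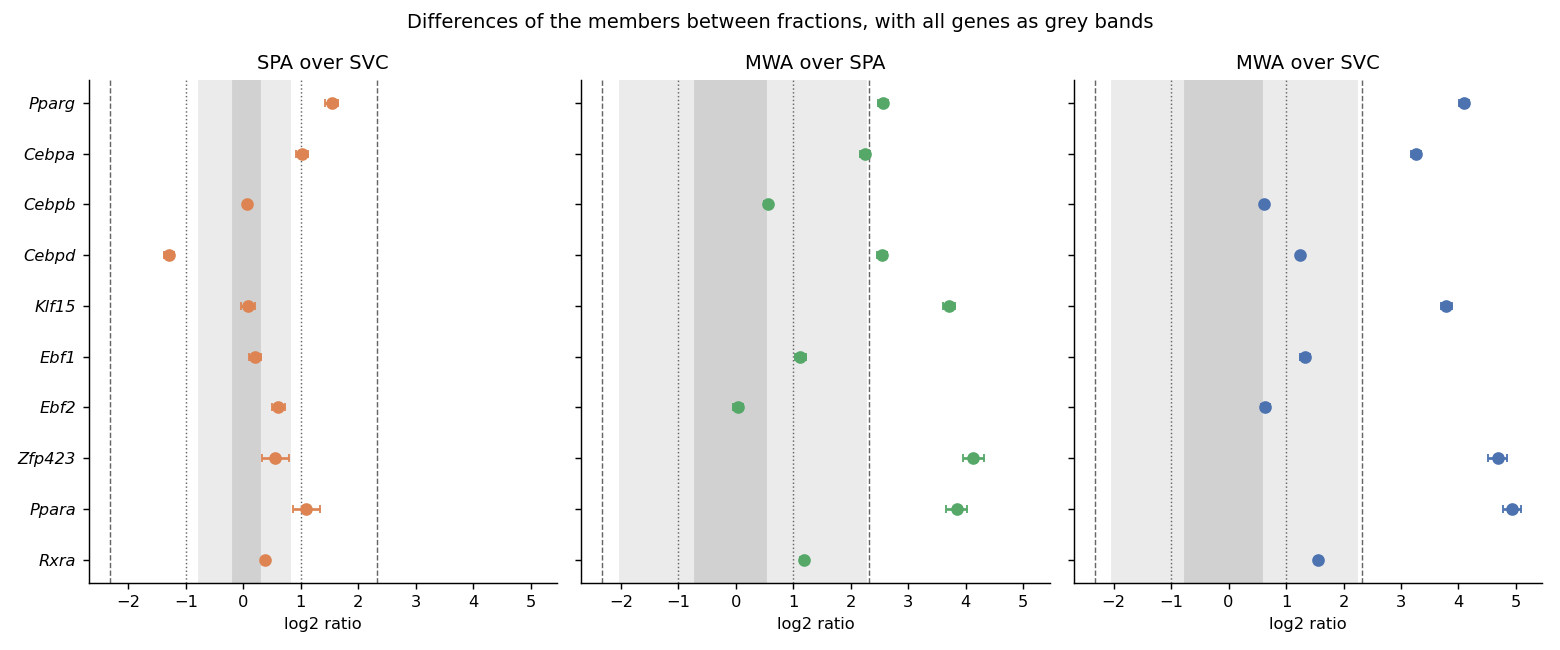
Log2 ratio of each factor for SPA over SVC, MWA over SPA and MWA over SVC, with bars for the spot SD, dotted lines at 2-fold and dashed lines at 5-fold. The dark and light grey bands span the 25th to 75th and the 5th to 95th percentiles of all genes measured on both arrays, and for MWA over SPA the points run from 0.03 for Ebf2 to 4.13 for Zfp423.

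The relatives of the factors were read next. Rxrg, a retinoid X receptor like Rxra, was not above background in SVC and had levels of -3.21 in SPA and 1.66 in MWA, 29.2-fold apart. Rxrb differed by 1.02-fold between MWA and SPA, and Ppard, the remaining PPAR, by 1.15-fold. Of the other C/EBP genes, Cebpg was 1.70-fold above SPA in MWA, Ddit3, which blocks the others, 1.13-fold above and Cebpe 1.41-fold below. For the 8 paralogues together, 2 were at least 2-fold higher and 0 lower in MWA than in SPA, beside 15.8% and 17.9% of all genes. Their median log2 ratio was 0.46. From SVC to SPA, Rxrg alone was 2-fold higher, at least 3.35-fold, beside 3.9% of all genes.

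Other inducers of adipogenesis were followed as a list of 13 genes. MWA was at least 2-fold above SPA for 8 of them and below for 1, Klf5, beside 15.8% and 17.9% of all genes. The list median was a log2 ratio of 1.73. Egr2, an early inducer, was 9.37-fold higher, and Nr1h3, the liver X receptor, was 5.34-fold higher. In SPA over SVC the median was -0.05, and Nr1h3 was the gene past 2-fold, at 2.09-fold, beside 3.9% of all genes. Among 14 cofactors of these receptors, 4 were at least 2-fold above SPA in MWA and 0 lower, beside 15.8% and 17.9% of all genes. The median of the cofactors was 0.78. Nrip1, a corepressor of nuclear receptors in fat, was 11.0-fold higher, with a local background marked as outlying in SPA. Ppargc1a, a coactivator, was above background in MWA alone and at least 9.28-fold higher, with a log2 value of 1.74 at its other probe. Prdm16, the cofactor of the brown fat programme, was 2.98-fold higher at low levels of -4.21 in SPA and -2.63 in MWA.

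Restrainers of adipogenesis were also read. In MWA 4 of 18 genes lay at least 2-fold above SPA and 4 at least 2-fold below it, near the 15.8% and 17.9% of all genes, with a median log2 ratio of 0.04. Foxo1 was 5.63-fold higher, whereas Gata3, which represses Pparg, was 5.12-fold lower. Sox9 was 3.18-fold lower, with a local background marked as outlying in MWA, and its other probe gave -0.55 on the log2 scale. Against SVC, 3 were at least 2-fold lower in SPA and 0 higher, beside 3.25% and 3.9% of all genes, with a list median of -0.37. Dlk1, the preadipocyte factor, was 5.03-fold lower in SPA, a log2 ratio of -2.33 against -1.13 at its other probe, and MWA was 2.42-fold above SPA. Foxc2 was 2.63-fold lower in SPA and Wnt10b at least 2.09-fold lower, its SPA signal being not well above background and its local background marked as outlying on all 3 arrays.

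Genes that PPARG and CEBPA are known to activate were followed as a list. Of 20 such genes, 14 were at least 2-fold above SVC in SPA and 0 lower, beside 3.9% and 3.25% of all genes. The list median was a log2 ratio of 1.67. Adipoq, the adiponectin gene, was at least 91.6-fold higher, Cidec, a lipid droplet protein, 60.3-fold, Plin1 at least 57.9-fold and Cfd 52.6-fold. The local background was marked as outlying on every array for Cfd and in SPA for Plin1. The probes of Plin1 differed, with a lowest log2 value of 1.76 for this comparison. Several of these differences were larger than the 2.90-fold of Pparg itself. Between MWA and SPA, 19 were at least 2-fold higher and 1, Gyk, was lower, beside 15.8% and 17.9% of all genes. The list median was 4.17. Pck1, an enzyme of glycerol synthesis in fat, differed 1189-fold, with levels of -3.60 in SPA and 6.62 in MWA, and Adrb3, the fat cell adrenergic receptor, differed 71.1-fold. All 4 adipocyte markers are among these 20 genes, so the list is not separate from the marker check.

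Targets of PPARA were also read, and this list is not limited to genes of fatty acid oxidation. Of 18 genes, 17 were above background on at least one array of each comparison. MWA was at least 2-fold above SPA for 10 of them and below for 1, Acot1, beside 15.8% and 17.9% of all genes. The list median was a log2 ratio of 2.22, which was 1.26 with normexp. Plin5 was 124-fold higher, Pdk4, which diverts pyruvate from oxidation, 30.9-fold and Vnn1 20.7-fold. From SVC to SPA, 3 genes were at least 2-fold higher and 0 lower, with Acot2 at 2.34-fold and Cpt1a at 2.02-fold among them. Over all genes these shares were 3.9% and 3.25%.

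**Figure D3:**
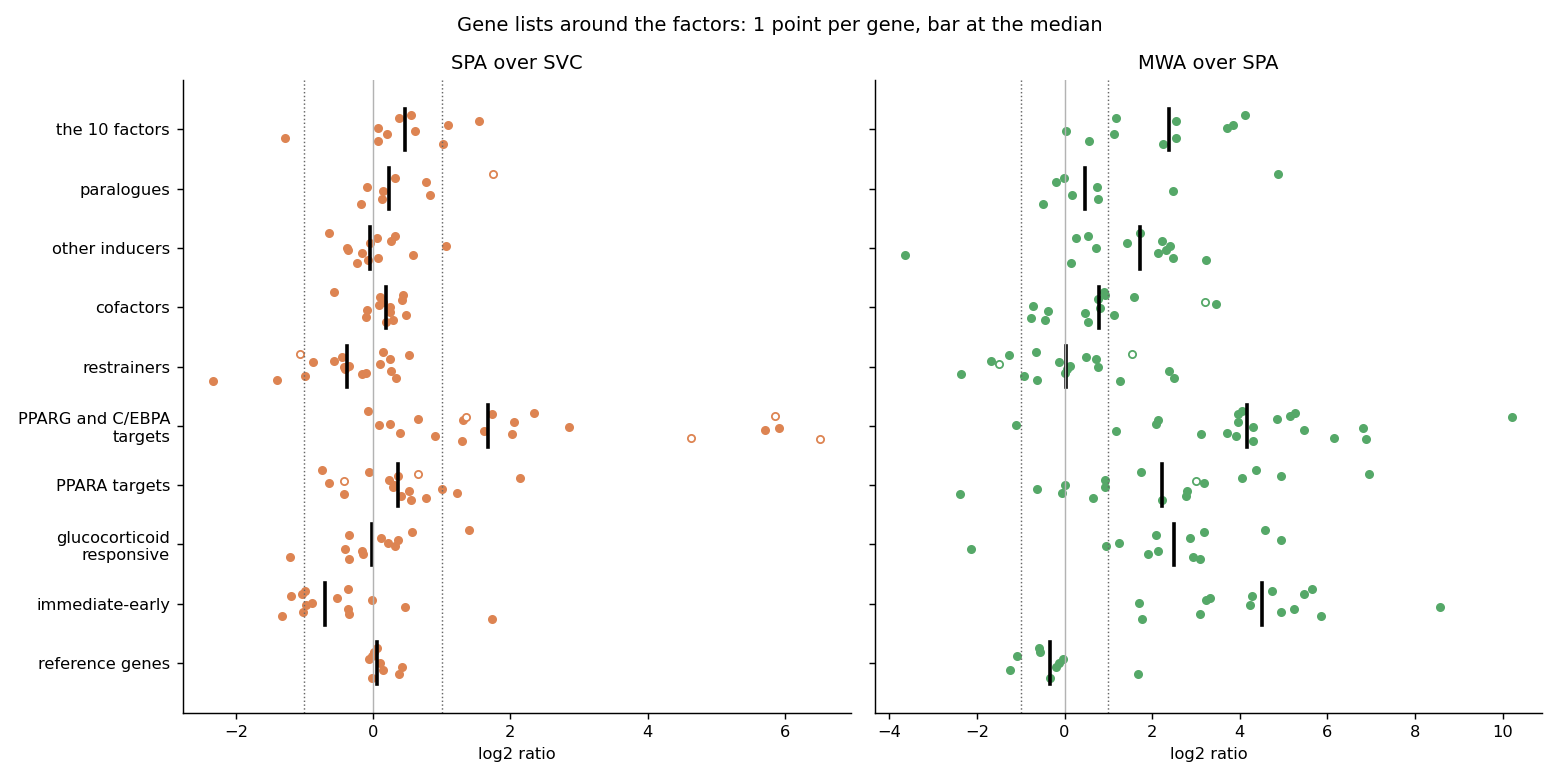
Log2 ratio of each gene of the lists around the factors, in SPA over SVC (left) and MWA over SPA (right), with open points for bounds, black bars at the list medians and dotted lines at 2-fold. The targets of PPARG and CEBPA have medians of 1.67 and 4.17, and the immediate-early genes of -0.71 and 4.51.

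Glucocorticoid-responsive and immediate-early genes were read because Klf15, Cebpd and Cebpb are known to be induced by hormones. Of 12 glucocorticoid-responsive genes, 10 were at least 2-fold higher and 1, Lcn2, lower in MWA than in SPA, beside 15.8% and 17.9% of all genes. The median log2 ratio of the 12 genes was 2.51. Zbtb16 was 23.9-fold higher and Tsc22d3, which encodes GILZ, 9.06-fold. From SVC to SPA their median was -0.02. All 14 immediate-early genes were at least 2-fold above SPA in MWA, beside 15.8% of all genes. The median of the 14 was 4.51, and Fosb was 378-fold and Btg2 58.3-fold higher. From SVC to SPA the median was -0.71, with 1 gene at least 2-fold higher, Atf3 at 3.33-fold, and 4 at least 2-fold lower, Btg2 at 2.50-fold among them. Over all genes these shares were 3.9% and 3.25%. Klf9, Pdk4 and Dusp1 each stand in 2 of the lists. What moved these lists was not tested, nor its part in the levels of Cebpb, Cebpd and Klf15. The 9 reference genes had medians of 0.06 between SPA and SVC and -0.33 between MWA and SPA, where B2m was 3.21-fold higher and Gapdh 2.35-fold lower in MWA.

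The bases before the starts of the factors were looked at for matches to the elements that C/EBP, EBF, KLF, nuclear receptor and helix-loop-helix proteins bind. RefSeq starts on GRCm38.p6 were listed for 8 of the 10 factors, with 13 windows of 250 bases in all, and none was listed for Cebpd and Ebf2. Searched on both strands were the C/EBP core TTGCNNAA, the EBF core CCCNNGGG, the receptor half-site AGGTCA, the PPAR and RXR element AGGTCANAGGTCA, which contains that half-site, the KLF box CACCC and the E-box CANNTG. Of all 32851 windows, 9.56% held the C/EBP core, 11.8% the EBF core, 14% the half-site, 0.0335% the full receptor element, 52% the KLF box and 66.2% the E-box. The C/EBP core was found in 2 of the 13 windows, at Pparg and Zfp423, the EBF core in 3, at Cebpb, Zfp423 and Ppara, and the half-site in 4, at Pparg, Zfp423 and Rxra. The full element was found in 0, the E-box in 8 and the KLF box in 12, missing from Pparg start 3 alone. GC content ran from 40% to 82.4% over these windows, and 10 of 13 were above the median of 52.4% over all windows. A match describes the letters only.

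The 5 factors that were at least 5-fold above SVC in MWA are shown, each by 1 window of 250 bases that ends at the base before the start, with capitals for the C/EBP core and the EBF core. Pparg has 3 listed starts and Zfp423 has 2, and the window shown is for each the only one with a C/EBP core.
Pparg, listed start 3, chr6:115421816-115422065, plus strand: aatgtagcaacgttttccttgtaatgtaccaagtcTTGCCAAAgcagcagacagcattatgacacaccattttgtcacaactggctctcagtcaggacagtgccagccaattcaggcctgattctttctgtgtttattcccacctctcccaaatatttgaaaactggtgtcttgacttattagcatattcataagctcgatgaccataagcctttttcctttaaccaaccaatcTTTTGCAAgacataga
Cebpa, chr7:35119043-35119292, plus strand: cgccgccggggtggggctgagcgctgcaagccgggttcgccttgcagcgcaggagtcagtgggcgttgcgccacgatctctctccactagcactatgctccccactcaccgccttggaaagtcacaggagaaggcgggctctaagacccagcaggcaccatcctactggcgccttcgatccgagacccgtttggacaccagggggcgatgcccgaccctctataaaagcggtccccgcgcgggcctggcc
Klf15, chr6:90462326-90462575, plus strand: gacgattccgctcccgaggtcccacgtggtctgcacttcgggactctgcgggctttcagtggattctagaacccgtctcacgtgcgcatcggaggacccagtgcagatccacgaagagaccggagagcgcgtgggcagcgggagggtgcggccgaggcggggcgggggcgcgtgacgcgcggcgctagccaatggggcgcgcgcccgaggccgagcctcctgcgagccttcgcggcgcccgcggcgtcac
Zfp423, listed start 1, chr8:87959596-87959845, minus strand: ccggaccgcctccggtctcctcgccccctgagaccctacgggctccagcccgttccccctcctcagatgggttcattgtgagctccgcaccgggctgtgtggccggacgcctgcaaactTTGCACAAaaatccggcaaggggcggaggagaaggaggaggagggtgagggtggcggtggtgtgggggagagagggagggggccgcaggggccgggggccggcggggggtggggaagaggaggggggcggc
Ppara, chr15:85735526-85735775, plus strand: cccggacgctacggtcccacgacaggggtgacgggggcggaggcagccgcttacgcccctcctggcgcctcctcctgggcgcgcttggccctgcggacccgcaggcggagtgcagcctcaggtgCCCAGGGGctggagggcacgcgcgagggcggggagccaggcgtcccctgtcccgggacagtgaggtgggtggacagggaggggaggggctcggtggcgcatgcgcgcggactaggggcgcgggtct
The Pparg window held 2 C/EBP cores, which begin 215 and 16 bases before the start, and had 2 CG pairs. The Zfp423 window held 1 C/EBP core, 131 bases before the start, and the Ppara window held 1 EBF core, 126 bases before it. Cebpa and Klf15 had neither, with 22 and 37 CG pairs in their windows.

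The 30 log2 ratios of the factors were computed again under 9 other settings. The direction was kept in 264 of 266 values, and both exceptions were ratios near 0. The exceptions were Cebpb for SPA over SVC, at -0.01 with quantile normalization, and Ebf2 for MWA over SPA, at -0.01 with the normexp background correction. Many of these values could not change. The filter settings leave every ratio as it was, because all 10 factors were well above background on all 3 arrays. The probe settings can move only factors with more than 1 probe that gives a ratio, and the deposited ratios shift all factors alike. The ratios of the dim factors were nearer to 0 with normexp, which also adds an offset to every signal. With it, the log2 ratio for MWA over SVC was 3.15 for Ppara, 3.55 for Zfp423 and 3.06 for Klf15, in place of 4.93, 4.68 and 3.79. It also put Cebpa at 0.97 and Ppara at 0.43 for SPA over SVC, so that only Pparg stayed at least 2-fold higher in SPA, and Ebf1 at 0.99 for MWA over SPA.

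**Figure D4:**
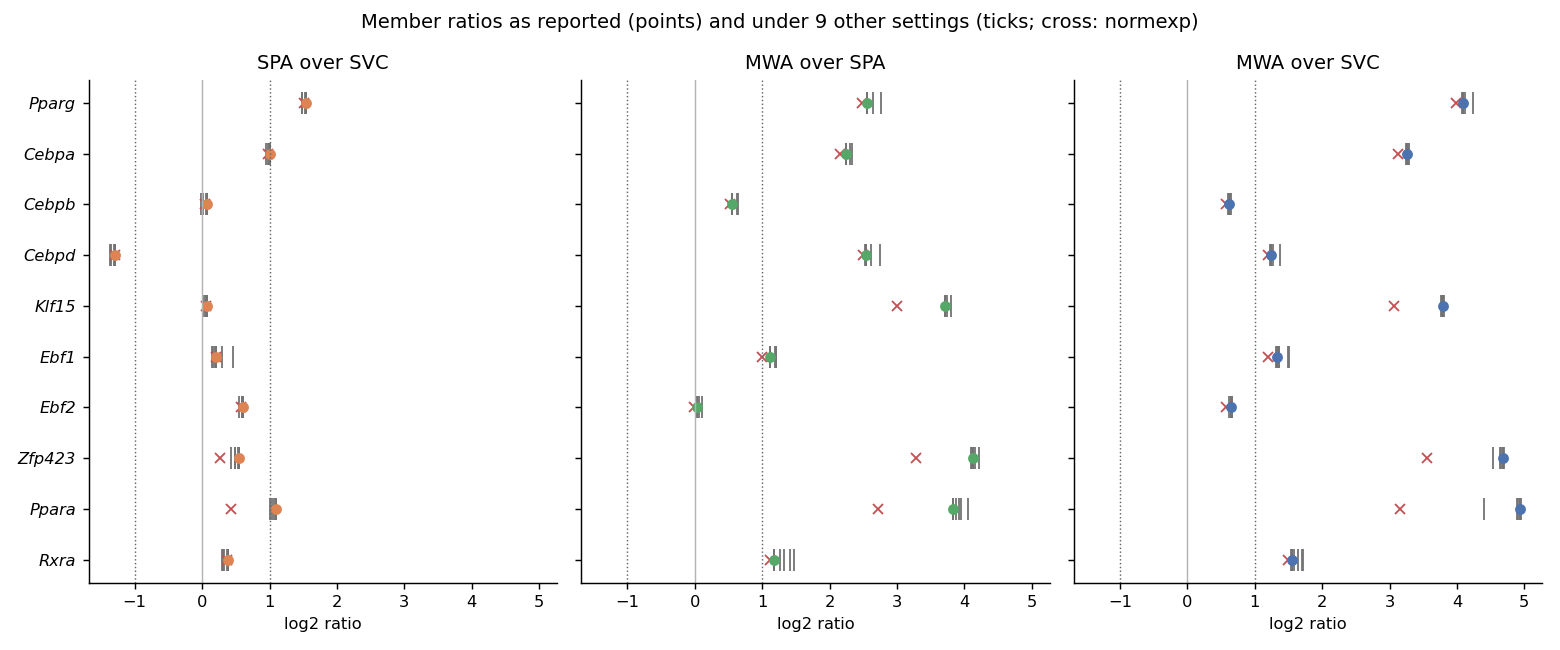
Log2 ratio of each factor as reported (points), under normexp (red crosses) and under the other 8 settings (grey ticks), with dotted lines at 2-fold. The widest gap is that of Ppara for MWA over SVC, 4.93 against 3.15.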

How the data were processed

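SVC, SPA and MWA RNA was hybridised to 1 Agilent SurePrint mouse array each. Spot intensity values were deposited as Agilent Feature Extraction 10.7.3.1 wrote them, with a processed signal after background subtraction, the raw signal and the local background. A value table deposited beside them gives the ratio of that signal to a constant for the array, to within a relative 1.37e-06, and served as an alternative. Study methods name GeneSpring GX, but the normalization and filter behind its lists are not given in the sources used here.

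Control spots and outlier spots were left out (75 in SVC, 98 in SPA and 129 in MWA). Each array was scaled to the 75th percentile of its non-control spots, and log2 ratios were taken between arrays. Spots well above background made up 58.6% in SVC, 61.4% in SPA and 61.3% in MWA, with 0 saturated. A probe not well above background on 1 array of a comparison gives a bound, set by the lowest level well above background there or its own level, whichever is higher. Where a gene has several probes, that with the highest mean level stood for it. No test was run, because each group holds 1 array, and the code was tested on simulated data with known folds. Counts used folds of 2 and 5.

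The 10 factors and the 9 gene lists and 10 marker lists were chosen with earlier results of these data known. Named are all 10 factors at every probe, up to 4 genes with the largest ratio in each comparison from each list, relatives of the factors in those lists, the 3 genes nearest to Pparg and to Cebpa, and markers of the fractions. Gyk, Acot1 and Lcn2 were named after their values were seen. Some values of single genes in the lists are not reported here. The lists hold 126 entries, all on the arrays. Alternatives covered the background (normexp, offset 50), the scaling (quantile normalization, a 75th percentile over probes detected everywhere, or the ratios as deposited), the filter (none, or detection on both arrays), the probe (the median over a gene, or the largest ratio) and the removal of spots whose local background was outlying.

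Probes are placed as in the annotation of the array files, in mm9, and exons or UTRs were not looked up, since no annotation of that build was used here. Promoter sequences are from RefSeq on GRCm38.p6, and the builds were not combined. Python 3.11.15 with numpy 2.4.6, pandas 2.3.3 and matplotlib 3.10.9 was used, with R 4.3.3 and limma 3.58.1 for normexp.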

Additional observations from a re-analysis of the deposited data

How the results depend on the processing

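No paired analysis was possible because each group holds 1 array. Of 108 recomputed counts of factors past 2-fold or 5-fold, 106 were within 1.5 times the reported count. These include the counts that were 0 and stayed 0, namely all counts of factors lower in MWA and both 5-fold counts between SPA and SVC. The filter settings could not change any count, because all 10 factors were well above background on all 3 arrays. With normexp, 1 factor, Pparg, was at least 2-fold above SVC in SPA, in place of 3. Without spots of outlying local background, 3 factors, Cebpa, Klf15 and Ppara, were at least 5-fold above SVC in MWA, in place of 5, because Zfp423 in SVC has no spot left there and the Pparg spot left in MWA is not well above background. The cause of the first was not tested. Over all genes, normexp gave 349 genes at least 2-fold higher and 327 lower in SPA than in SVC, in place of 883 and 737. It gave 2451 and 2756 for MWA against SPA, in place of 3781 and 4297, and 2613 higher for MWA against SVC, in place of 4048. Without a filter on dim probes, 2145 genes were higher and 1629 lower in SPA than in SVC, and the median over all genes for MWA over SVC was -0.19 in place of -0.0010. Of the 27 list medians, 11 were at least 2-fold from 0, and all 99 of their recomputed values were at least 2-fold in the same direction. The median of the PPARA targets fell to 1.26 with normexp for MWA over SPA, in place of 2.22, and to 1.34 for MWA over SVC, in place of 2.54. With the probe of largest ratio, the median of the PPARG and CEBPA targets was 5.15 in place of 4.17 and 6.56 in place of 5.64 in these comparisons, and that of the inducers was 1.98 in place of 1.38 for MWA over SVC. Ppara and Zfp423 lie close to the local background in SVC and SPA, and their folds were smaller with normexp in every comparison. That setting changes the background removal and adds an offset at the same time, and the part of each was not tested.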
